A study of Mus musculus with 6 samples.

Results

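Cdk1, Aurkb, Nek2, Kifc1, Spc24 and Pimreg are 6 genes of mitosis among the 149 genes that the authors listed as differing between the reperfused hearts of TMAO-treated and untreated mice. They were taken by symbol from the authors' deposited table, and all 6 symbols were found once. Each gene was listed because its level differed between these same libraries, so the differences below describe how the genes were chosen and are given without a test. Male C57BL/6 mice, labelled as wild type, had the left anterior descending artery of the heart tied off for 45 min and were then reperfused for 24 h (IR, 3 libraries). The TMAO+IR mice (3 libraries) had the same surgery and drank 0.12% trimethylamine N-oxide (TMAO), a product of gut bacterial and liver metabolism, for 4 weeks beforehand and during it. RNA came from the injured region of the heart, the labels used here give no age, and no library without ischaemia-reperfusion was used. The labels number the libraries within a group and do not name animals.

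Entry into mitosis is driven by cyclin-dependent kinase 1, the product of Cdk1, bound to B-type cyclins. Aurora kinase B (Aurkb) is the enzyme of the chromosomal passenger complex, which corrects faulty attachments of chromosomes to the spindle and takes part in cytokinesis. NEK2 separates the centrosomes, KIFC1 is a kinesin motor that moves towards microtubule minus ends and focuses spindle poles, SPC24 is a subunit of the NDC80 complex that ties kinetochores to microtubules, and PIMREG is a nuclear protein of dividing cells. Adult cardiomyocytes rarely divide, while endothelial cells, fibroblasts and leukocytes proliferate in the days after an infarct. Transcripts of this kind are made mainly in dividing cells, and in bulk tissue fewer dividing cells and less RNA per cell cannot be told apart.

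All 6 genes were lower in TMAO+IR, with between 23.5% (Pimreg) and 42.4% (Spc24) of the IR level in scaled counts. Every one of the 149 genes (100%) had passed the authors' limits and 18.1% of them were lower, and since the 6 genes were chosen from this contrast nothing is read from those shares. In the authors' deposited table the lowest log2 fold changes were those of the predicted gene Gm14308 and of Iqgap3, and ranks 3 to 7 were held by Pimreg (-2.13), Cdk1 (-2.03), Nek2 (-2.00), Kifc1 (-1.85) and Aurkb (-1.83). Spc24 ranked 18 (-1.13). The authors' deposited table reaches up to a false discovery rate (FDR) of 0.0487 and down to a fold change of 1 on the log2 scale in either direction. Of the 6 genes Spc24 was nearest to the fold limit. Nek2 was nearest to the FDR limit, at 0.0148 in the authors' deposited table. Genes just outside these limits were not analysed here.

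The 6 genes had 3 to 106 counts per library. Their median of the mean count over all libraries was 26.4, against 88.8 in the other 21 lower genes and 292 in the 122 higher genes. Only Spc24 reached a mean of 50 counts. In scaled counts (CPM, counts scaled to the library's fragments), the sum of the 6 genes was 12.4, 15.6 and 14.4 in IR replicates 1, 2 and 3, from 256, 343 and 323 counts. It was 5.55, 3.44 and 4.42 in the TMAO+IR replicates, from 102, 74 and 92 counts. The IR mean was 14.1 ± 1.63 and the TMAO+IR mean 4.47 ± 1.06 (SD, n = 3 each). The exact Poisson intervals (95%, counting error only) of the IR sums began at 10.9 and those of the TMAO+IR sums ended at 6.74, so no library of one group reached into the other.

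**Figure D1:**
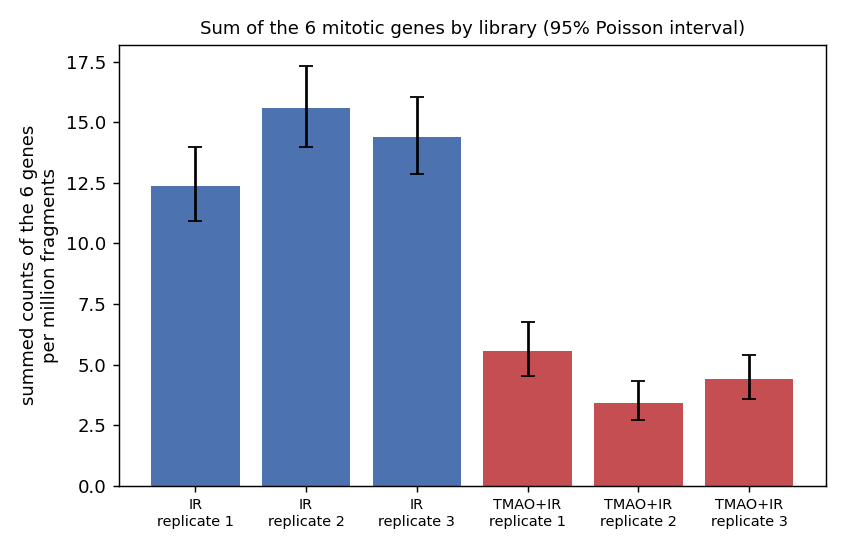
Summed CPM of the 6 mitotic genes (vertical axis, from 0) in each of the 6 libraries, with the exact 95% Poisson interval of each sum. The 3 IR bars stand between 12.4 and 15.6 and the 3 TMAO+IR bars between 3.44 and 5.55.

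Among the kinases, Cdk1 stood at 1.75, 1.93 and 2.01 FPKM (fragments scaled to transcript length and library size) in IR replicates 1, 2 and 3, and at 0.68, 0.32 and 0.39 in the TMAO+IR replicates. TMAO+IR replicate 1 was the highest of its group but below every IR library. In scaled counts the IR libraries lay further apart than in FPKM, with the highest at 1.40 times the lowest (44, 63 and 67 counts). From counts, the log2 fold change of TMAO+IR over IR was -1.92 ± 0.37 (SE), or 3.78-fold lower. Fold changes come from an edgeR fit over the whole table, whose SE rests mostly on the spread shared by all listed genes. In the authors' deposited table the FDR of Cdk1 was 0.00227.

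Aurkb stood at 0.89, 1.01 and 0.80 FPKM in the IR replicates and at 0.37, 0.24 and 0.15 in the TMAO+IR replicates. The lowest IR library was 2.20 times the highest TMAO+IR library in scaled counts, a wider gap than for Cdk1 (1.95). The log2 fold change was -1.84 ± 0.40. The TMAO+IR values rest on 13, 10 and 6 counts, whose exact Poisson intervals (6.92 to 22.2, 4.80 to 18.4 and 2.20 to 13.1) overlap, so an order among these 3 libraries was not detectable at this depth.

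Nek2 was the least abundant of the 6 genes per length, with 0.37, 0.52 and 0.43 FPKM in the IR replicates and 0.08, 0.07 and 0.18 in the TMAO+IR replicates. Here TMAO+IR replicate 3 was the highest of its group, with 12 counts against 5 and 5. The log2 fold change was -1.96 ± 0.43, and the groups did not overlap. The annotated gene Gm38037 lies antisense to Nek2 and shares 298 bp of its longest transcript. The protocol in the labels names no step that marks the strand, so reads of this stretch cannot be told apart.

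Of the spindle and kinetochore genes, Spc24 was the most abundant and the most even. It stood at 4.74, 4.56 and 4.55 FPKM in the IR replicates and at 2.54, 1.89 and 1.88 in the TMAO+IR replicates. The within-group SD of its log2 scaled counts was 0.21, against 0.47 to 0.79 in the other 5 genes. Spc24 also had the most counts, with a mean of 68.7 against 19.2 to 36.0 in the others. Counting error is larger on the log2 scale at fewer counts, and its part in these SDs was not tested. Its log2 fold change of -1.24 ± 0.33, or 2.36-fold lower, was the smallest of the 6.

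Kifc1 was the most uneven of the 6 genes among the IR libraries, with 0.64, 1.27 and 0.79 FPKM in replicates 1, 2 and 3. IR replicate 2 had 66 counts against 31 in IR replicate 1, and their exact Poisson intervals (51.0 to 84.0 and 21.1 to 44.0) did not overlap. In the TMAO+IR replicates Kifc1 stood at 0.25, 0.14 and 0.36 FPKM, again with replicate 3 highest. The log2 fold change was -1.83 ± 0.38, and it was -1.50 without IR replicate 2. The longest transcript of Kifc1 (2357 bp) aligned to that of Kifc5b, a copy elsewhere on chromosome 17, over 2312 bp at 96.8% identity, and to Gm21358, Gm20763 and Kifc5c-ps at 91.6% to 92.8%. How reads were shared among these copies during counting is not stated, so the level of Kifc1 is uncertain and those of the copies were not analysed here. It also aligned to Arhgap20os on the opposite strand (90.8% over 348 bp). Shorter and less alike copies were found for Pimreg (Gm18935, 89.1% over 678 bp), Aurkb (Gm5307, 84.2% over 793 bp) and Cdk1, and none for Spc24. Those of Cdk1 were AC154787.1 (89.9% over 445 bp) and AC122895.1 (78.2% over 779 bp).

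Pimreg had the largest fold change of the 6, -2.09 ± 0.42 on the log2 scale, or 4.25-fold lower. It stood at 1.05, 1.16 and 1.33 FPKM in the IR replicates and at 0.43, 0.28 and 0.10 in the TMAO+IR replicates. TMAO+IR replicate 3 held only 3 counts of Pimreg, with an exact Poisson interval of 0.62 to 8.77, so the size of the difference is loosely set. Without TMAO+IR replicate 1 the log2 fold change was -2.64, the widest shift that leaving out 1 library gave among the 6 genes.

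**Figure D2:**
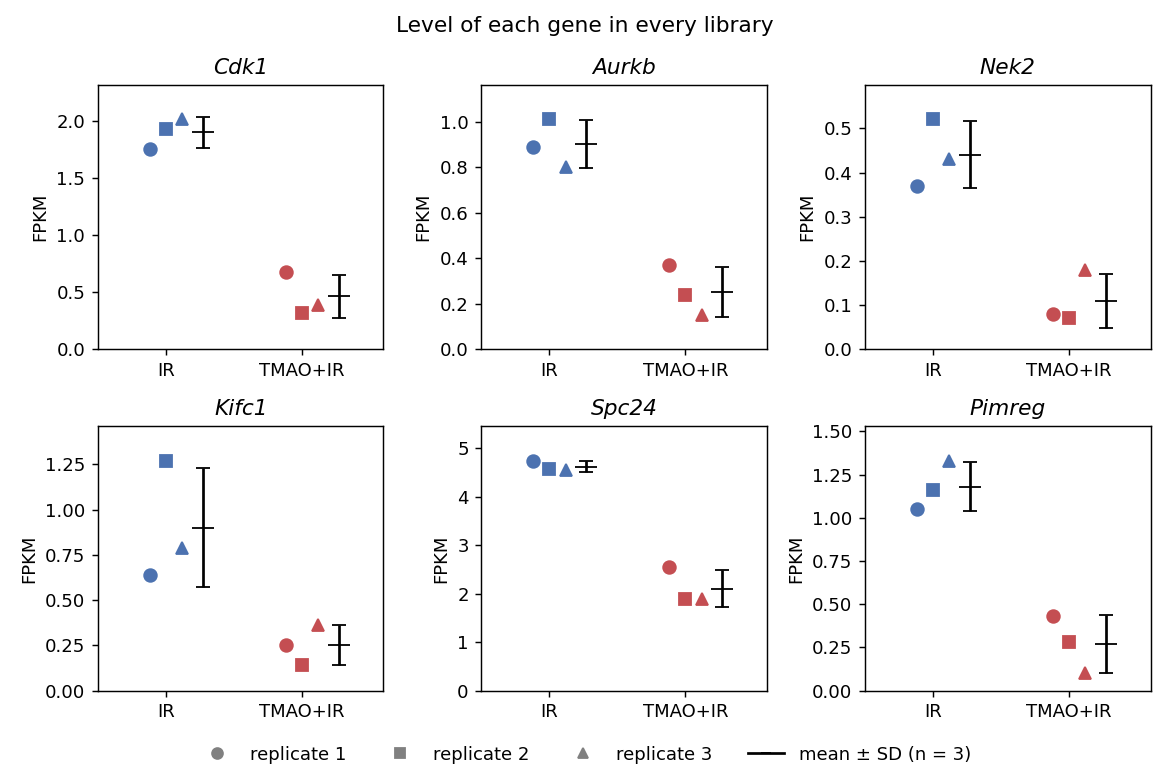
FPKM of each gene (vertical axes, from 0, scaled per gene) in every IR and TMAO+IR library, with the mean ± SD of each group (n = 3) beside the points. In each of the 6 panels the lowest IR library lies above the highest TMAO+IR library, and Kifc1 has the widest spread among the IR libraries (0.64 to 1.27 FPKM).

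In 6 of the 6 genes every TMAO+IR library had fewer scaled counts than every IR library. Over the 149 listed genes, 16.8% were lower without overlap, and 97.3% did not overlap in either direction, so the absence of overlap is a property of the listed genes at large. The median log2 fold change of the 6 genes was -1.88, beside -1.19 in the other 21 lower genes and 1.16 in all 149. The 6 genes had fewer counts than the other lower genes (median of the mean counts 26.4 against 88.8). A gene with fewer counts needs a larger fold to pass an FDR limit, so these medians are not compared on equal terms. Leaving out each library in turn moved the median of the 6 genes between -2.04 and -1.72. Without Kifc1, an alternative chosen after the data were seen, it was -1.92.

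**Figure D3:**
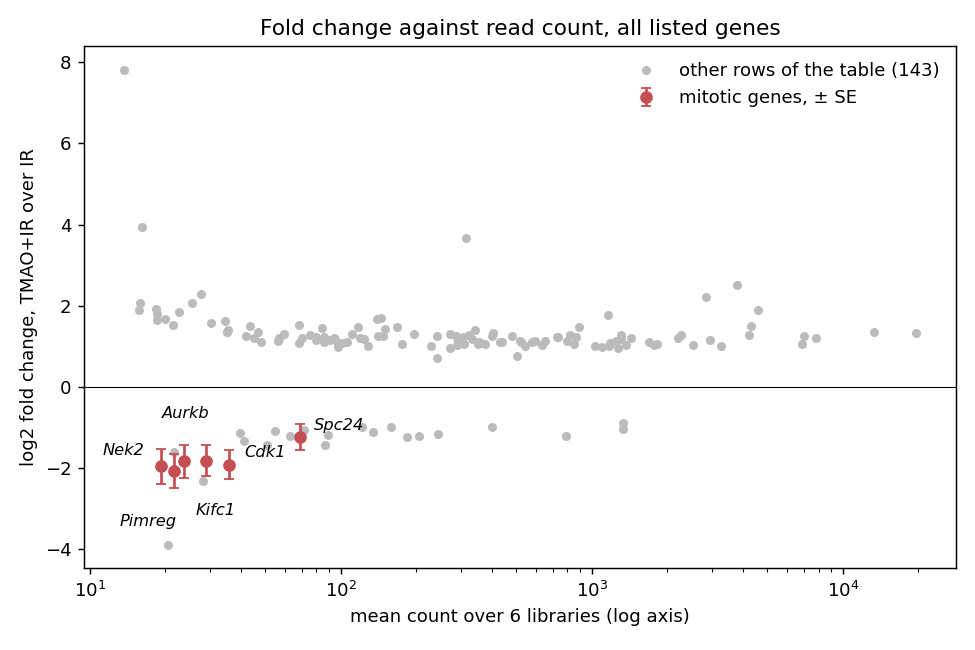
Log2 fold change of TMAO+IR over IR (vertical axis) against the mean count over the 6 libraries (log axis) for the 149 listed genes, with the 6 mitotic genes in red and their SE as bars. The mitotic genes lie at the left of the plot, between 19.2 (Nek2) and 68.7 (Spc24) mean counts, with fold changes from -2.09 to -1.24.

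By group mean, the order of the levels per length was nearly the same in both groups. In IR the mean FPKM ran from Spc24 (4.62) through Cdk1 (1.90) and Pimreg (1.18) to Aurkb and Kifc1 (0.90 each) and Nek2 (0.44). In TMAO+IR it ran from Spc24 (2.10) through Cdk1 (0.46), Pimreg (0.27), Aurkb (0.25) and Kifc1 (0.25) to Nek2 (0.11). Spc24 stood above Cdk1 in every library of both groups. Over all libraries the median of the mean FPKM was 0.651 in the 6 genes, against 2.86 in the other 21 lower genes and 3.46 in the 122 higher genes. Both group means lay below 2.86 in every member but Spc24, whose IR mean lay above it. In IR the libraries of Cdk1, Pimreg and Aurkb did not overlap between neighbours in this order, while those of Aurkb and Kifc1 did. In TMAO+IR every pair of neighbours below Spc24 overlapped, and in TMAO+IR replicate 3 the order below Cdk1 was Kifc1, Nek2, Aurkb and Pimreg, with Pimreg last.

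Because Spc24 differed less than the other genes, the make-up of the group shifted. Spc24 held 50.2%, 43.6% and 45.9% of the summed FPKM of the 6 genes in the IR replicates and 58.4%, 64.3% and 61.4% in the TMAO+IR replicates. Every TMAO+IR library exceeded every IR library in this share. In counts the shares were 34.4%, 29.7% and 32.8% in IR and 40.2%, 44.6% and 45.7% in TMAO+IR, again without overlap. Relative to Spc24 within the same library, 3 of the 5 other genes (Cdk1, Aurkb and Pimreg) separated the groups, both in FPKM and in counts. Such ratios restate the fold changes by which the genes were listed. They were not computed for the other listed genes, so nothing is read from that count. The FPKM ratio of Cdk1 to Spc24 was 0.37 to 0.44 in IR and 0.17 to 0.27 in TMAO+IR, but the count ratio nearly touched, at 0.50 to 0.63 and 0.26 to 0.49. The FPKM ratio of Aurkb was 0.18 to 0.22 in IR and 0.080 to 0.15 in TMAO+IR, and that of Pimreg 0.22 to 0.29 and 0.053 to 0.17. Nek2 and Kifc1 overlapped in both units, with FPKM ratios of 0.078 to 0.11 and 0.031 to 0.096 for Nek2 and of 0.14 to 0.28 and 0.074 to 0.19 for Kifc1.

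In scaled counts the 6 genes did not rank the libraries of a group alike. In TMAO+IR, replicate 1 was the highest library for Cdk1, Aurkb, Spc24 and Pimreg, while replicate 3 was the highest for Nek2 and Kifc1. Replicate 3 was also the lowest for Aurkb and Pimreg, at -0.66 and -1.18 from the group mean on the log2 scale. In IR, replicate 2 was the highest for Aurkb, Nek2 and Kifc1, replicate 3 was the highest for Cdk1, Spc24 and Pimreg, and replicate 1 was the lowest for Cdk1, Nek2, Kifc1 and Spc24. In TMAO+IR, replicate 2 was the lowest for Cdk1, Nek2, Kifc1 and Spc24 in scaled counts. For Nek2 this rests on library size alone, since TMAO+IR replicates 1 and 2 held 5 counts each. The same is true of Cdk1, with 11 counts each in TMAO+IR replicates 2 and 3. Nek2 and Kifc1 therefore shared their highest and lowest library in both groups, and in scaled counts so did Cdk1 and Spc24. In FPKM the IR replicates ran in opposite order, at 1.75, 1.93 and 2.01 for Cdk1 and 4.74, 4.56 and 4.55 for Spc24. The lowest TMAO+IR library in FPKM was replicate 2 for Cdk1 (0.32) and replicate 3 for Spc24 (1.88, beside 1.89 in replicate 2). With 3 libraries a group and counts down to 3, these orders are a description.

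**Figure D4:**
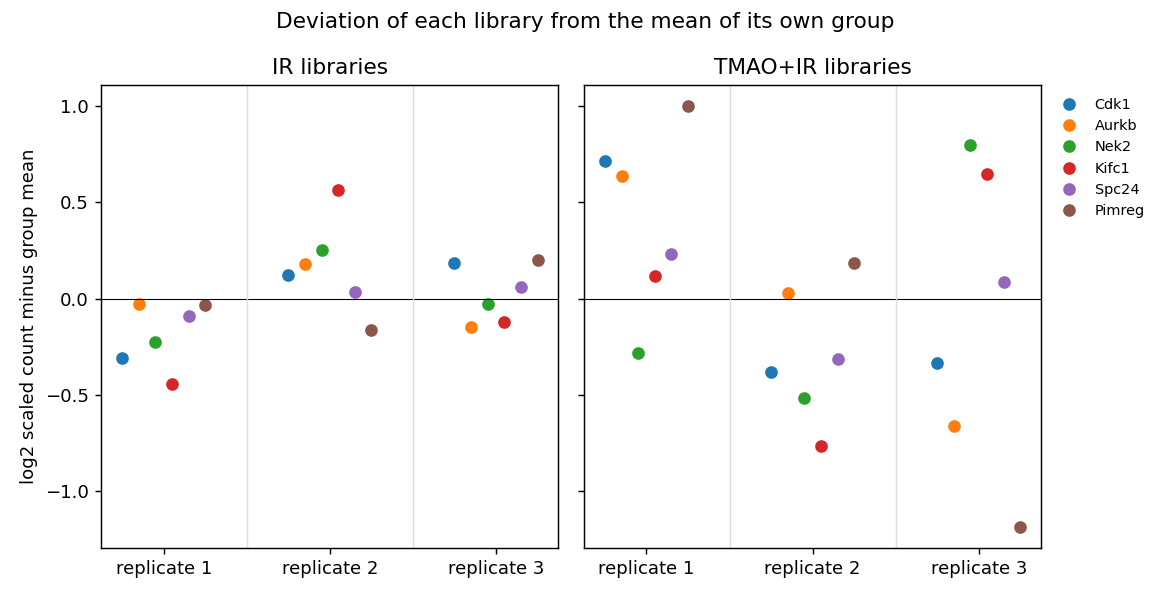
Log2 scaled count of each gene minus the mean of its own group (vertical axis) in the 3 IR libraries (left) and the 3 TMAO+IR libraries (right). In TMAO+IR replicate 3, Nek2 (0.80) and Kifc1 (0.65) lie above their group means, while Aurkb (-0.66) and Pimreg (-1.18) lie below theirs.

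The fold changes from counts and from FPKM were not identical. For Cdk1 the log2 value was -1.92 from counts and -2.03 from the mean FPKM in the authors' deposited table, and for Spc24 it was -1.24 and -1.13. The transcript length implied by count and FPKM stayed between 1901 and 1949 bp for Aurkb, 3201 and 3402 bp for Nek2, and 2322 and 2401 bp for Kifc1, where the longest annotated transcripts are 1950, 3227 and 2357 bp. It varied between libraries for Cdk1 (1216 to 1601 bp), Spc24 (811 to 1073 bp) and Pimreg (1255 to 1520 bp). What sets this variation was not tested, and for these 3 genes the FPKM and the counts of a library are not in a fixed proportion.

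The genes lie on 5 chromosomes of GRCm38, in the positions of GENCODE release M21, and all are annotated as protein-coding. Cdk1 (ENSMUSG00000019942) occupies chromosome 10 from 69335146 to 69352938 on the minus strand, and Nek2 (ENSMUSG00000026622) chromosome 1 from 191821444 to 191833050 on the plus strand. Kifc1 (ENSMUSG00000079553) lies on the minus strand of chromosome 17 from 33875659 to 33890661, and Spc24 (ENSMUSG00000074476) on the minus strand of chromosome 9 from 21755442 to 21760303. Aurkb (ENSMUSG00000020897, 69045647 to 69051664) and Pimreg (ENSMUSG00000020808, 72042032 to 72047370) share the plus strand of chromosome 11, with 2990368 bp between them.

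Promoters of genes expressed late in the cell cycle commonly hold CCAAT boxes bound by the factor NF-Y and a cell cycle genes homology region (CHR), the element through which the DREAM and MuvB complexes act. E2F sites are typical of genes expressed earlier in the cycle. Since the 6 genes were lower together, their promoter windows were searched on both strands for CCAAT, for the CHR forms TTTGAA and TTCGAA, and for the E2F-type sequences TTTCCCGC, TTTGGCGC, TTTCGCGC and GGCGGGAA. The windows are those of RefSeq on GRCm38.p6, from 250 bases before to 50 after the start of a gene, and 3 of the 6 genes (Cdk1, Kifc1 and Nek2) matched an entry by symbol. The stretch of each window nearest to the start, which holds all matches before it but the farthest CCAAT of Cdk1, is shown 5′ to 3′ on the strand of the gene, ends at the base just before the RefSeq start (position -1), and has the matches in capitals. CCAAT on the opposite strand reads ATTGG.
Cdk1, chr10:69352913-69353052, minus strand: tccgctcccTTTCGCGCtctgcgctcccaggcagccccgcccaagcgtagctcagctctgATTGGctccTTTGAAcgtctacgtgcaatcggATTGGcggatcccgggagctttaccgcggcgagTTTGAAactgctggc
Kifc1, chr17:33890634-33890723, minus strand: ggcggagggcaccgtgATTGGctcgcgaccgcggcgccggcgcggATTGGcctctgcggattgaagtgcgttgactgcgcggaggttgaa
Nek2, chr1:191821413-191821472, plus strand: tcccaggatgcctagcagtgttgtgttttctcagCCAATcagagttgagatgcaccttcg

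CCAAT was found in the windows of 3 of the 3 genes, in 41.1% of the 27025 genes with an entry and in 37.4% of all 32851 windows. Among the listed genes with an entry it was in 12 of the 20 lower genes, these 3 included, and in 45 of the 89 higher genes. Cdk1 held it on the opposite strand at -208, -80 and -48 (first base of the match), Kifc1 on the opposite strand at -74, -45 and 25, and Nek2 on its own strand at -26 and 8. In each of the 3 windows the closest pair of boxes on 1 strand lay 29 (Kifc1), 32 (Cdk1) or 33 (Nek2) bases apart. The range of 29 to 33 bases was set by these 3 windows after they were seen, so the 3 genes hold such a pair by construction. Any pair on 1 strand in this range was held by 1.22% of all windows (1.40% of genes). It was held by 0 of the other 17 lower genes with an entry and by 2 of 89 higher genes, and nothing is read from these shares. TTTGAA was found in Cdk1 at -71 and -15 on its own strand and in Kifc1 at 2 on the opposite strand, beside 20.2% of all genes (17.9% of all windows), 7 of the 20 lower genes and 22 of the 89 higher genes. TTTCGCGC was found in Cdk1 at -131, beside 0.323% of all windows. The remaining sequences were not in these 3 windows. The RefSeq starts used for these positions lie inside the GENCODE genes given above. The CCAAT of Nek2 at -26 and the TTTGAA of Cdk1 at -15 therefore fall within the GENCODE genes. A match of letters is a description and does not show that a factor binds there.

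**Figure D5:**
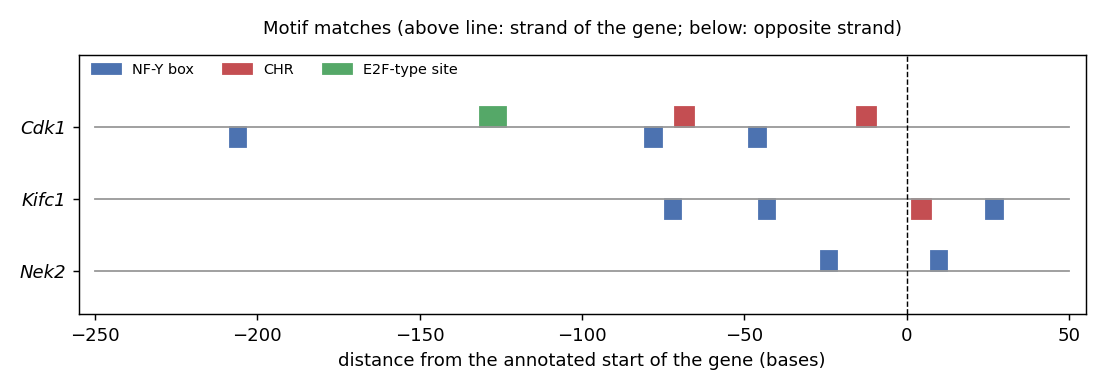
Matches to the NF-Y box, the CHR and the E2F-type sites in the promoter windows of Cdk1, Kifc1 and Nek2, by distance in bases from the RefSeq start (dashed line, horizontal axis). Each of the 3 genes has a pair of NF-Y boxes on 1 strand, 29 to 33 bases apart (a range set by these 3 windows), near the start.

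Of 154 genes in 6 lists of mitosis, DNA replication and cell cycle control, written with earlier results of these data known, the table held only the 6 genes described here. The 25 mitotic kinases and regulators included Cdk1, Aurkb and Nek2, the 28 chromosomal passenger and kinetochore genes Spc24, and the 26 spindle motors and microtubule organisers Kifc1 and Pimreg. None of the 149 genes was in the lists for the anaphase promoting complex and cohesion (18 genes), DNA replication and S phase (34) or the control of the G1 phase (23). Partners such as Ccnb1, Birc5, Incenp, Ndc80 and Mki67 were among the list members not analysed here, and absence from the table does not show an equal level. In the annotation that came with the authors' deposited table, the process "cell division" was given to 6 of the 149 genes, which were these 6. The process "cell cycle" was given to the same 6 and to Rps6ka3, a growth factor-activated kinase, which was higher. The 6 genes were grouped by function with earlier results of these data known, so these matches follow from that choice.

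By Pearson correlation of log2 scaled counts with the mean of the 6 genes over the 6 libraries, the most alike of the other listed genes were 2210407C18Rik (0.99), Fdxr (0.98), Iqgap3 (0.96), Bicdl1 (0.94) and Slc4a1 (0.93). The median over the other 21 lower genes was 0.89, in a table whose genes were all selected on the group difference. Iqgap3, a scaffold protein of proliferating cells, stood at 0.33, 0.69 and 0.28 FPKM in the IR replicates and at 0.10, 0.06 and 0.08 in the TMAO+IR replicates. IR replicate 2 was its highest library, as for Kifc1, Nek2 and Aurkb. Within IR it was also the highest in FPKM for 2210407C18Rik and Slc4a1, but not for Fdxr and Bicdl1. Of the cell type markers described below, Mmp8, Ccr2 and Chil3 also peaked there within IR, while Sfrp2 and Ackr1 did not. The listed genes held 0.505% of the fragments of IR replicate 2, against 0.354% and 0.330% in IR replicates 1 and 3. A peak in this library is therefore not particular to the mitotic genes.

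Markers of the cells that could hold these transcripts differed in both directions. Of 70 markers in 8 cell type lists, 6 were among the 149 genes and none of these was at 0 in any library. Slc4a1, the anion exchanger of red cells and 1 of 10 erythroid markers, ranged from 0.23 to 0.49 FPKM in IR and from 0.08 to 0.16 in TMAO+IR, with IR replicate 2 highest. Sfrp2, a secreted Wnt modulator and 1 of 9 fibroblast markers, ranged from 0.84 to 1.94 FPKM in IR and from 0.42 to 0.70 in TMAO+IR. The monocyte and macrophage markers Ccr2 and Chil3, 2 of 10, summed to 1.06 to 1.83 FPKM in IR and 2.77 to 6.11 in TMAO+IR. Mmp8, 1 of 9 neutrophil markers, ranged from 3.53 to 6.75 and from 8.89 to 11.7 FPKM, and Ackr1, 1 of 8 endothelial markers, from 0.80 to 0.88 and from 1.83 to 2.58. The markers chosen here for cardiomyocytes (9), lymphocytes (9) and smooth muscle (6) were not in the table, so the labelled tissue could not be checked against them. Genes outside these lists were not used for such a check, and absence from the table does not show an equal level. The part of these cell types in the lower levels of the mitotic genes was not tested.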

How the data were processed

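Poly(A)-selected RNA was sequenced in 6 libraries. The authors deposited 1 table of 149 genes, selected on the group difference, with raw read counts per gene and library. It also holds FPKM values deposited by the authors to 2 decimals, group means, the log2 fold change of those means (T-IR, matched to TMAO+IR, over IR) as deposited, and the authors' p-value and FDR, whose tool is not stated. Per the submitters' processing notes, the build was GRCm38 and the tools, with no role stated, were edgeR, DESeq2, StringTie 1.3.1, HISAT2, Bowtie2 2.2.8 and fastp 0.18.0.

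Library sizes were recovered from count over FPKM in the 86 genes whose lowest value was 1 FPKM or more, and made absolute with 12 single-transcript genes. They ranged from 18370997 fragments (TMAO+IR replicate 1) to 22442237 (IR replicate 3), of which the listed genes held 0.330% to 1.08%. Counts of all 149 genes were fitted with edgeR 4.0.16 (quasi-likelihood, R 4.3.3) with these sizes and no filter, which was tested on simulated data. No p-value of this fit is given, because the rows were selected on the contrast. Poisson intervals are exact (95%) and cover counting error only, since reads carried no molecular identifiers. Near-identical transcripts were sought with BLAST 2.17.0 in GENCODE release M21. Correlations used log2(CPM + 0.05). The members and gene lists were chosen with earlier results of these data known. The named genes are the 6 members, the listed genes in a gene or marker list, and the 5 genes most correlated with the members; others are named where a count or a sequence copy called for it. Replicates are separate libraries with no stated animal, so spreads may be technical.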

Additional observations from a re-analysis of the deposited data

How the results depend on the processing

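Each of the 6 fold changes and their median were recomputed under the alternatives, and all 93 values kept their direction. Of these, 77 moved by less than the within-group SD of log2 scaled counts and 16 moved further. TMM scaling within the table and DESeq2 size factors from the table centre a list in which most genes were higher, and shift the median of the 149 genes by -1.03 and -1.06. With TMM scaling the log2 fold change was -3.00 for Cdk1, -2.90 for Aurkb, -2.97 for Nek2, -2.82 for Kifc1, -2.29 for Spc24, -3.19 for Pimreg and -2.94 for the median. With the size factors it was -3.03, -2.93, -3.01, -2.85, -2.33, -3.22 and -2.97 in the same order. On log2(FPKM + 0.1) with limma, Nek2 stood at -1.39 and the median at -1.53, where the pseudocount is of the size of the TMAO+IR levels. With a mean of at least 50 counts only Spc24 remained, so the count of genes without overlap was 1 and no median could be given. With the replicate number as a block the median was -1.90. Over the 149 genes, deviations from the group mean correlated at -0.18, 0.19 and -0.03 between libraries with the same number, so the numbers were not taken to pair the libraries. Leaving out 1 library gave ranges of -2.34 to -1.73 for Cdk1, -2.19 to -1.57 for Aurkb, -2.48 to -1.71 for Nek2, -2.21 to -1.50 for Kifc1, -1.35 to -1.09 for Spc24 and -2.64 to -1.69 for Pimreg. Leaving out a library cannot end the separation of groups that do not overlap, so the count of such genes is not given for it. Counts of 3 to 20 per TMAO+IR library in the genes other than Spc24 limit the precision of each fold change.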
